A study of Mus musculus with 7 samples.

Results

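The chemokines and their receptors of the CC and CXC families were followed through colon development in the mouse. They were taken by symbol in the array annotation, which had to begin with Ccl, Cxcl, Ccr or Cxcr and a digit. This gave 46 of 18194 genes, read by 70 probe sets. There were 18 Ccl and 13 Cxcl genes, which encode 31 ligands, and 10 Ccr and 5 Cxcr genes, which encode 15 receptors. A gene also needed a probe set that names no other gene, so Ccl19, Ccl27b and the Ccl21 genes were left out. No expression value was used in the choice.

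Chemokines are small secreted proteins that bind G protein-coupled receptors on leukocytes and other motile cells and direct where those cells go. Some are made all the time by epithelium or stroma and place cells in a tissue at rest, such as Ccl25, Ccl28, Cxcl12 and Cxcl13, and others are switched on in inflammation, such as Cxcl1, Cxcl2 and Ccl3. In the gut they bring lymphocytes, eosinophils and macrophages into the mucosa and help to build its lymphoid tissue.

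RNA of whole colon from inbred C57BL/6 mice was put on Affymetrix Mouse Genome 430 2.0 arrays for each embryonic day between E13.5 and E18.5, and from an adult at 8 weeks of age. The mice carried no engineered allele and were not treated. There was 1 array per stage, 7 in all, and the labels do not say how many animals went into each. Values are log2 intensities after robust multi-array averaging (RMA), and a gene value is the median over its probe sets that name no other gene.

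With no replicates, the error came from the embryonic arrays themselves. A limma fit gave each gene a slope per embryonic day over the 6 embryonic arrays and set the adult array against the value of that line at E18.5. Errors of slopes and differences are standard errors (SE) from 4 residual degrees of freedom plus the prior of the fit, and the lone adult array is assumed to vary like the embryonic ones. A slope passed when its Benjamini-Hochberg adjusted p over all 18194 genes was under 0.05, and an adult difference at the same p and a size of at least 1 on the log2 scale, which is 2-fold. In whole tissue, fewer cells of a type and less RNA per cell cannot be told apart. Probe sets differ in how strongly they bind, so levels are compared between stages of a gene and not between genes.

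Facts of the whole series bear on every adult value. The medians of the 7 arrays lay between 5.81 and 5.86. The 5′ minus 3′ probe set difference of Gapdh, a measure of RNA integrity, was -2.41 in the adult and between -1.59 and -1.29 before birth. For Actb it was -2.66 in the adult and between -2.14 and -1.96 on the embryonic arrays. The adult array also had higher marker genes of pancreatic acinar cells (3 of 4 measured genes), of fat (1 of 4, Adipoq, 7.45 in the adult and 4.41 at E18.5) and of tissue handling (2 of 7, Fos and Atf3). All 9 epithelial markers rose along the embryonic line (100%, against 9.12% of all genes). The part of these shifts in the chemokine values was not tested.

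Among the 46 genes 8 rose from E13.5 to E18.5 (17.4%, against 9.12% of all genes), and 7 of these were ligands. They were Ccl6, Ccl9, Cxcl13, Ccl25, Cxcl14, Ccl11, Ccl5 and the receptor Cxcr3. A single gene fell, Cxcl12 (2.17%, against 10.4% of all genes). In the adult, Ccl8 was higher than the level fitted at E18.5 (2.17%, against 4.23% of all genes) and Cxcr4 was lower (2.17%, against 3.26% of all genes). None of the 10 Ccr receptors passed the limma test of slope or, at a size of at least 1, of adult difference. At an unadjusted p under 0.05 the counts were 1 (the slope of Ccr2) and 0, and the share of all genes was not counted. The median slope was 0.01 per day over the 46 genes and 0.00 per day over all genes, and the median adult difference was 0.06 over the 46 genes and 0.03 over all genes.

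**Figure D1:**
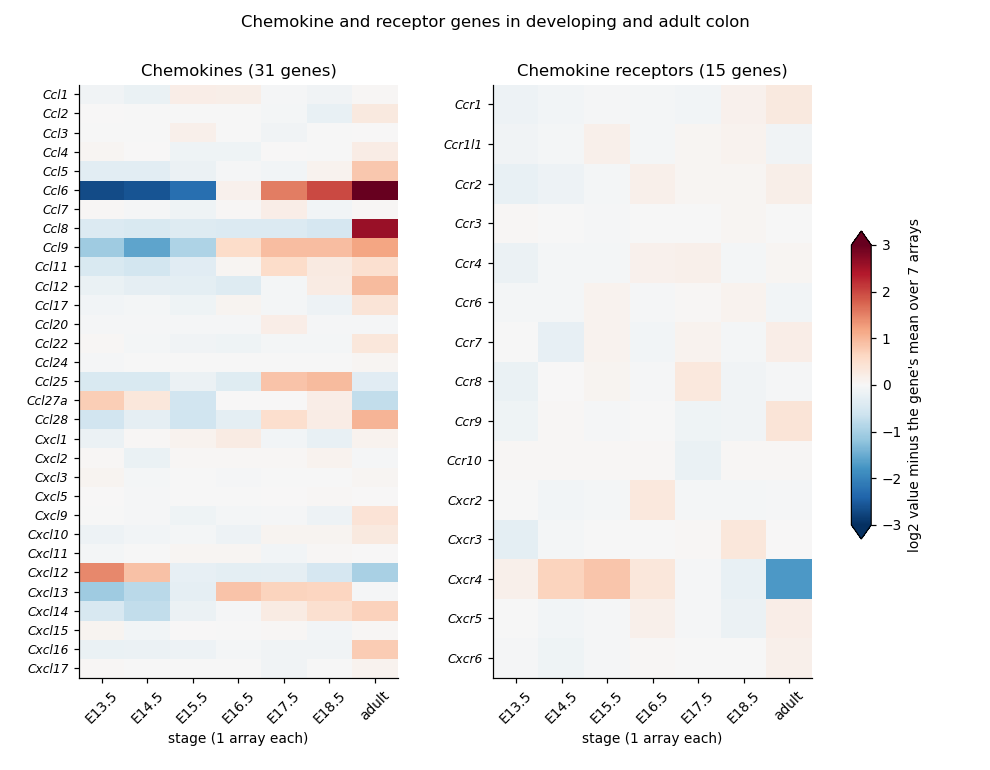
Log2 value of each of the 46 genes at each stage minus the mean of that gene over the 7 arrays (colour), with ligands on the left and receptors on the right, 1 array per stage. Strong colour is limited to a few rows, with Ccl6 spanning 6.52 on the log2 scale, Ccl8 3.10, Ccl9 2.76, Cxcr4 2.56 and Cxcl12 2.40, and 26 of the 46 rows span under 0.5.

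Many of the 46 genes were dim. The mean of 25 of the 46 genes (54.3%) lay in the lowest 25% of all genes on the arrays. A span under 0.5 on the log2 scale over the 7 stages was found for 26 (56.5%, against 47.7% of all genes). A span of at least 1 was reached by 13 genes (28.3%, against 23.5% of all genes), and Cxcr4 was the receptor among them. Of the 70 probe sets, 16 had the very same value on 3 or more arrays. The share among all probe sets was not counted, so this is not shown to be particular to these genes. The cause was not tested.

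The largest slopes lay in Ccl6 and Ccl9, CC chemokines of rodents that draw myeloid cells and that both bind the receptor Ccr1 in mice. The genes lie next to each other on chromosome 11, in a row of 5 protein-coding neighbours in the order Ccl5, Ccl9, Ccl6, Ccl3 and Ccl4. Their promoters are shown because these neighbours moved together while Ccl3 and Ccl4 did not. The windows run from 250 bases before to 50 bases after the start of the gene, on its strand (RefSeq, GRCm38.p6), at chr11:83593038-83593337 (minus strand) for Ccl6 and chr11:83578587-83578886 (minus strand) for Ccl9. A window was found for 33 of the 46 genes. Capitals mark runs of at least 10 bases that occur in both windows.
Ccl6: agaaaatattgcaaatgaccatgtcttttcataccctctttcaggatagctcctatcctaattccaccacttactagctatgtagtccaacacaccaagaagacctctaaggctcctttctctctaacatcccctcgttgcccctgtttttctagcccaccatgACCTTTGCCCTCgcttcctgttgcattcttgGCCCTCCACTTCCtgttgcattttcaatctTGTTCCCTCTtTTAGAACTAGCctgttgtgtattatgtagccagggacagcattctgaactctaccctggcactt
Ccl9: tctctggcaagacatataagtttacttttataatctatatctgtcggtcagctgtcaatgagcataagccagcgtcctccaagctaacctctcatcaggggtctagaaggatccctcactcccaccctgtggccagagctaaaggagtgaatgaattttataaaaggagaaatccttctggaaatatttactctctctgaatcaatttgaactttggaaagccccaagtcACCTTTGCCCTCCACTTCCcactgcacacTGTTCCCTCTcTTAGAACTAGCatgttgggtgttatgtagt
The longest shared run had 13 bases and began 55 bases before the start of Ccl6 and 14 bases before that of Ccl9. The runs covered 46 bases of the Ccl6 window and 40 bases of the Ccl9 window. Among the 528 pairs of promoters of the 33 genes, the median longest shared run was 8 bases, and the pair Cxcl1 and Cxcl2 had the longest, 20 bases. The 6-base TATAAA, searched on both strands, occurred 224, 94 and 92 bases before the start of Ccl9, where the matches at 94 and 92 overlap on opposite strands, and not in the window of Ccl6. It was present in 13.6% of 32851 mouse windows of this length.

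Ccl6 stood at 5.19, 5.28, 5.61, 7.98, 9.40 and 9.85 from E13.5 to E18.5, and its adult value was 11.71. Each stage was above the one before it. Its slope was 1.09 per day (SE 0.13, limma adjusted p = 0.00314), and the E18.5 array was 4.66 above that of E13.5 on the log2 scale. The first 3 values are dim, so the difference is not an exact fold. The largest step lay between E15.5 and E16.5, at 2.38. Both probe sets rose, and the slope passed in every alternative run. The adult value was 1.77 above the level fitted at E18.5 (SE 0.69, 95% interval 0.14 to 3.40), which did not pass (limma adjusted p = 0.132).

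Ccl9 stood at 5.63, 5.12, 5.78, 7.25, 7.62 and 7.62 from E13.5 to E18.5 and at 7.88 in the adult. The 3 later embryonic arrays all lay above the 3 earlier ones, and the adult lay close to E18.5. The slope was 0.54 per day (SE 0.10, limma adjusted p = 0.0117). The adult difference was 0.02 (95% interval -1.19 to 1.24). The gene value averages unlike probe sets. One read 6.40, 5.55, 6.73, 9.25, 10.17 and 10.36 from E13.5 to E18.5 and 10.62 in the adult, and the other stayed between 4.68 and 5.24. The adjusted p of the gene was 0.0521 when E18.5 was left out and 0.0530 when E17.5 was.

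Their receptor Ccr1, on monocytes, macrophages and neutrophils, read 4.16, 4.24, 4.27, 4.26, 4.23 and 4.43 from E13.5 to E18.5 and 4.62 in the adult. Its slope of 0.04 (95% interval -0.01 to 0.09) did not pass, and its adult value was above every embryonic one. In the fit of single probe sets, an alternative chosen after seeing the data, 1 of its 2 probe sets was 0.52 higher in the adult (SE 0.11, limma adjusted p = 0.0251), under the size asked for. The neighbours Ccl3 and Ccl4, inflammatory chemokines of macrophages and T cells, spanned 0.26 and 0.36 over the 7 stages. The neighbour Ccl5, which attracts T cells and other leukocytes, read 4.98, 4.96, 5.12, 5.25, 5.20 and 5.40 from E13.5 to E18.5 and 6.09 in the adult. It was lowest on the early arrays and highest in the adult, with a small slope of 0.08 per day (SE 0.02, limma adjusted p = 0.0296) and an adult difference of 0.73 (SE 0.11, limma adjusted p = 0.00438). Its slope lost the call under 6 alternatives that kept the line, with adjusted p from 0.0503 (arrays centred on their median) to 0.156 (without E18.5).

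**Figure D2:**
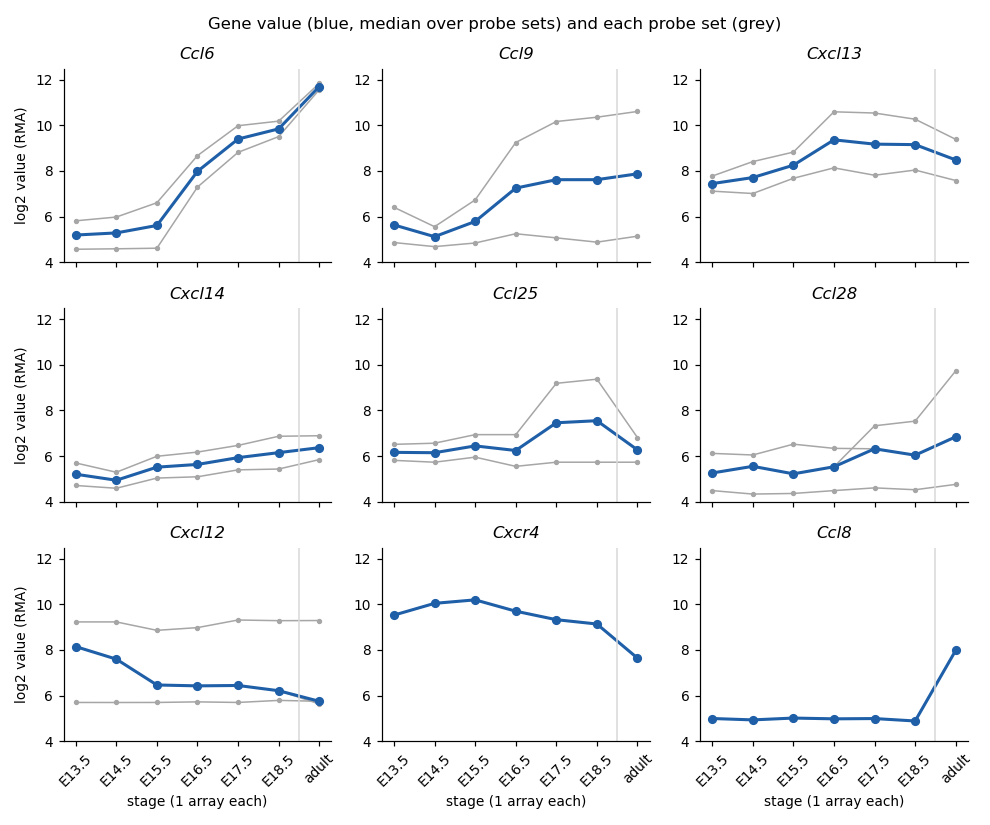
Log2 RMA value (vertical axis, the same in all panels) by stage for 9 genes, with the gene value in blue and each probe set in grey, 1 array per stage, and a grey line between E18.5 and the adult. The probe sets of Ccl6 and Cxcl14 run together, while in Ccl9, Ccl25, Ccl28 and Cxcl12 a single probe set carries most of the change.

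A second group stepped up at the same point. Between E15.5 and E16.5, Ccl6, Ccl9 and Cxcl13 were the genes of the family that gained at least 2-fold (3 of 46, 6.52%, against 1.01% of all genes). Cxcl13 draws B cells and lymphoid tissue inducer cells through Cxcr5 and helps to found lymphoid tissue. It stood at 7.45, 7.71, 8.26, 9.37, 9.18 and 9.16 from E13.5 to E18.5 and at 8.49 in the adult. It climbed to E16.5 and held there, and the adult lay between E15.5 and E18.5. The slope was 0.40 per day (SE 0.07, limma adjusted p = 0.0114), and the adult value was 1.04 below the level fitted at E18.5 (SE 0.38, limma adjusted p = 0.112, not passed). Both probe sets of Cxcl13 rose when fitted separately, but their steps differed. Between E15.5 and E16.5 the brighter went from 8.83 to 10.60 and the other from 7.68 to 8.14. Its adjusted p was 0.0760 without E13.5 and 0.0526 without E17.5. The receptor Cxcr5, which marks B cells and follicular helper T cells, read 4.37, 4.30, 4.35, 4.55, 4.35 and 4.22 from E13.5 to E18.5 and 4.60 in the adult, with a slope of -0.01 (95% interval -0.08 to 0.05).

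Promoters of Cxcl13 and Ccl8 are shown because both genes changed strongly at a set stage and both carry TATAAA close to their start. The windows have the same length and source, at chr5:95956689-95956988 (plus strand) for Cxcl13 and chr11:82114935-82115234 (plus strand) for Ccl8. Capitals mark TATAAA, which begins 46 bases before the start of Cxcl13 and 32 bases before that of Ccl8.
Cxcl13: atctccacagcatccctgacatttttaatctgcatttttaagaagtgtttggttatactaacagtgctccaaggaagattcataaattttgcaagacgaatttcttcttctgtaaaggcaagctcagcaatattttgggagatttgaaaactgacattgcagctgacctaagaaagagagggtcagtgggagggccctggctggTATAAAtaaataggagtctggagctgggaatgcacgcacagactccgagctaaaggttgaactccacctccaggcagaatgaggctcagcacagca
Ccl8: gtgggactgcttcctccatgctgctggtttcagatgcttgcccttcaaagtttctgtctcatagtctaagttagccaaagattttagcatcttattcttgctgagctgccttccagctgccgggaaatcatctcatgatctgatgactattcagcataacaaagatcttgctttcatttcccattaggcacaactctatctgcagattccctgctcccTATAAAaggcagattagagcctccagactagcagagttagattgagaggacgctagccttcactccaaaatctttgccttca
TATAAA was present in the windows of 10 of the 33 genes with one, and in 13.6% of all windows. Those 10 were Cxcl13, Ccl8, Ccl9, Ccl25, Ccl12, Cxcr4, Cxcl9, Cxcl15, Cxcl3 and Ccr1l1. Their spans over the stages ran from 0.14 (Cxcl3) to 3.10 (Ccl8). The motif GGGANTTTC, of the type bound by NF-kappaB and searched on both strands, was present in the windows of 6 of the 33 genes, Cxcl1, Cxcl2, Cxcl3, Cxcl9, Cxcr2 and Ccr3, and in 1.11% of all windows. Neither Ccl6, Ccl9, Cxcl13 nor Ccl8 has it in these windows. The core of ETS family sites, AGGAAG, was found for 18 of the 33 genes and in 35.4% of all windows. That of GATA factors, AGATAA, was found for 7 of the 33 genes and in 11.2% of all windows. Both were searched on both strands. These are letter matches and not sites of binding.

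Ccl8 had the largest adult difference of the 46 genes. In mice its product binds Ccr8 and is made largely by macrophages. It read 4.99, 4.93, 5.01, 4.97, 4.99 and 4.88 from E13.5 to E18.5 and 7.98 in the adult. The 6 embryonic arrays lay within a narrow band and the adult far above it. The adult was 3.10 above the E18.5 array on the log2 scale, which is not an exact fold because the embryonic values are dim. The difference from the fitted level was 3.05 (SE 0.10, limma adjusted p = 1.25e-05). The difference passed in every alternative run, but all of these used the same adult array and so cannot show how adult arrays vary. Its receptor Ccr8, found on T helper and regulatory T cells, read 3.99, 4.21, 4.27, 4.15, 4.51 and 4.09 from E13.5 to E18.5 and 4.15 in the adult.

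Ccl8 lies in a row of 6 protein-coding neighbours on chromosome 11, in the order Ccl2, Ccl7, Ccl11, Ccl12, Ccl8 and Ccl1. The adult differences of the other 5 genes were smaller. Ccl12, a monocyte chemoattractant, read 4.90, 4.84, 4.79, 4.71, 5.03 and 5.35 from E13.5 to E18.5 and 6.06 in the adult. Its adult difference was 0.92 (SE 0.20, limma adjusted p = 0.0227), under the size asked for. Ccl2, also a monocyte chemoattractant, was at 6.49 in the adult and 5.97 at E18.5, a difference of 0.44 from the fitted level (SE 0.10, limma adjusted p = 0.0265). Ccl7 and Ccl1 differed by 0.01 and 0.02, with 95% intervals of -0.35 to 0.37 and -0.43 to 0.48. Ccr2, the receptor of Ccl2, Ccl7 and Ccl12 on monocytes, read 4.36, 4.42, 4.51, 4.71, 4.63 and 4.62 from E13.5 to E18.5 and 4.74 in the adult, with a slope of 0.06 (limma adjusted p = 0.112).

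Ccl11, the eotaxin that draws eosinophils into the gut, is the neighbour that changed before birth. It read 6.55, 6.45, 6.66, 7.05, 7.55 and 7.27 from E13.5 to E18.5 and 7.48 in the adult. The later embryonic arrays and the adult lay above the 3 early arrays. The slope was 0.21 per day (SE 0.05, limma adjusted p = 0.0205), which lost the call without E14.5 (adjusted p 0.0738) and without E16.5. The adult differed from the fitted level by 0.04 (95% interval -0.52 to 0.59). Ccl24, another eosinophil chemokine, ranked in the order of the stages (Spearman rho 0.91) but spanned 0.08, from 5.27, 5.27, 5.28, 5.28, 5.28 and 5.28 on the embryonic arrays to 5.35 in the adult. The eotaxin receptor Ccr3 read 4.09, 4.04, 4.03, 4.05, 4.05 and 4.11 from E13.5 to E18.5 and 4.05 in the adult. Of the 9 mast cell and eosinophil markers, Siglecf was higher in the adult (5.57, against 4.53 at E18.5), while the eosinophil granule genes Prg2 and Epx had adult differences of -0.21 and 0.03 that did not pass.

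**Figure D3:**
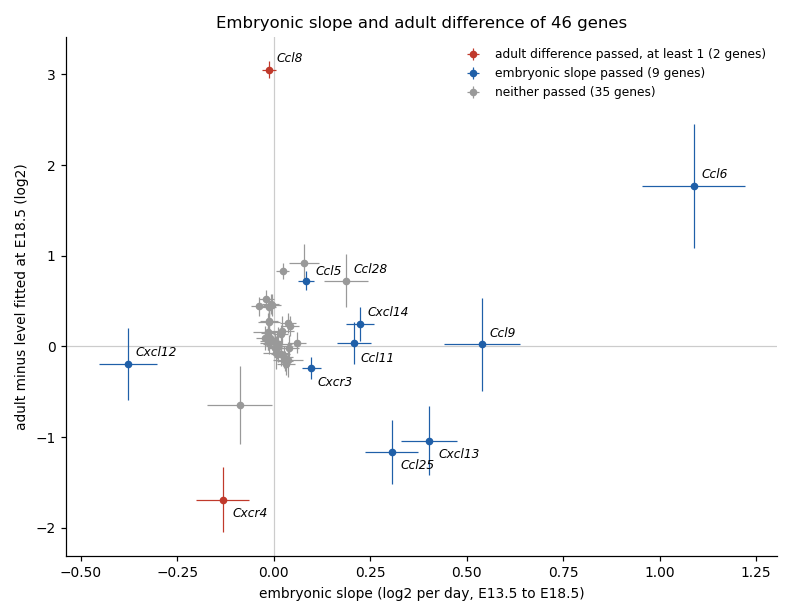
Slope per embryonic day (horizontal axis, log2 per day) against the adult minus the level fitted at E18.5 (vertical axis, log2) for the 46 genes, with bars of 1 SE. The 35 grey genes that passed neither test crowd around 0, Ccl6 stands alone at a slope of 1.09, Ccl8 at an adult difference of 3.05, and Cxcr4 at -1.69.

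Without the minimum size, 9 of the 46 genes were higher in the adult (19.6%, against 10.2% of all genes) and 1 was lower (2.17%, against 8.4% of all genes). The 9 were Ccl8, Ccl12, Ccl5, Ccl2, Ccl17, Ccl22, Cxcl9, Cxcl16 and Ccr9. Ccl17 and Ccl22, dendritic cell chemokines that share the receptor Ccr4, differed by 0.46 and 0.44 (SE 0.12 and 0.10). Ccr4 itself differed by -0.02 (95% interval -0.35 to 0.32). Cxcl16, a membrane-bound chemokine, read 6.42 in the adult and 5.56 at E18.5, and its adult difference was 0.83 (SE 0.09, limma adjusted p = 0.0014). Its receptor Cxcr6, on T cells and innate lymphoid cells, differed by 0.14 (95% interval -0.09 to 0.38).

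Ccl25 and Ccl28, made by gut epithelium, had their largest embryonic step a day later than Ccl6, between E16.5 and E17.5. Ccl25 guides lymphocytes that carry Ccr9 to the gut. Its gene value was 6.16, 6.15, 6.44, 6.24, 7.46 and 7.55 from E13.5 to E18.5 and 6.27 in the adult. The arrays of E17.5 and E18.5 stood above all others and the adult lay back among the early ones. The slope was 0.31 per day (SE 0.07, limma adjusted p = 0.0239), with adjusted p of 0.0847 without E14.5, 0.158 without E18.5 and 0.0789 without E17.5. The adult value was 1.16 below the fitted level (SE 0.36, limma adjusted p = 0.0673), which did not pass. One probe set read 6.51, 6.56, 6.94, 6.94, 9.19 and 9.38 from E13.5 to E18.5 and 6.81 in the adult, and the other stayed between 5.55 and 5.95. When the brighter probe set stood for the gene, the adult difference was -2.36 (SE 0.64) and passed (limma adjusted p = 0.0415). In the fit of single probe sets, an alternative chosen after seeing the data, the same difference (SE 0.65) did not pass.

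Ccl28, which draws IgA plasma cells through Ccr10 and is a chemokine of the colon and other mucosae, was split in the same way. Its gene value was 5.25, 5.55, 5.22, 5.53, 6.32 and 6.04 from E13.5 to E18.5 and 6.84 in the adult. The adult was highest, but neither the slope of 0.19 (SE 0.06, limma adjusted p = 0.0649) nor the adult difference of 0.73 (SE 0.29, limma adjusted p = 0.147) passed. The 3 probe sets differed. One read 5.25, 5.55, 5.22, 5.53, 7.33 and 7.53 from E13.5 to E18.5 and 9.74 in the adult, where the others read 6.84 and 4.75. In a fit of all 45101 probe sets, an alternative chosen after seeing the data, this probe set had a slope of 0.49 per day (SE 0.12, limma adjusted p = 0.0374) and was 2.46 higher in the adult (SE 0.60, limma adjusted p = 0.039). In that fit 6.02% of all probe sets rose, 8.69% fell, 3.42% were higher in the adult and 3.73% lower. A probe set of Cxcl16 was also higher in the adult there, by 1.21 (SE 0.10, limma adjusted p = 0.000645). The gene value, as a median, leaves out most of the change of the brightest Ccl28 probe set.

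Neither receptor of these epithelial chemokines passed at the size asked for. Ccr9 read 4.80, 4.96, 4.89, 4.92, 4.80 and 4.84 from E13.5 to E18.5 and 5.32 in the adult. The adult was above every embryonic array, by 0.47 over the fitted level (SE 0.11, limma adjusted p = 0.0267). Fitted singly, the 5 probe sets of Ccr9 had adult differences of 0.58, 0.50, 0.31, 0.06 and -0.25. Their SE were 0.14, 0.12, 0.13, 0.14 and 0.19 in the same order. The brightest of them differed by 0.31 (SE 0.13). Ccr10 read 5.15, 5.17, 5.15, 5.15, 4.91 and 5.15 from E13.5 to E18.5 and 5.15 in the adult, with an adult difference of 0.09 (95% interval -0.21 to 0.40). Ccl27a, better known as a chemokine of skin and the other ligand of Ccr10, read 7.68, 7.30, 6.38, 6.97, 6.97 and 7.15 from E13.5 to E18.5 and 6.21 in the adult. It was highest on the first array and lowest in the adult, and neither its slope of -0.09 (limma adjusted p = 0.559) nor its adult difference of -0.65 (limma adjusted p = 0.381) passed.

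On the adult array Jchain, a plasma cell gene, read 10.89, against 4.04 at E18.5. Of the 8 measured B and plasma cell markers, 2 were higher in the adult (Jchain and Pou2af1). Cd79b, Mzb1 and Ms4a1 differed by 0.80, 0.79 and 0.77, and Cd79a, Cr2 and Blk by 0.15, 0.12 and -0.03. The mean over the list, in which Jchain had the largest difference, was 6.09 in the adult and between 4.60 and 4.73 on the embryonic arrays. Of the 12 macrophage and monocyte markers, 4 were higher in the adult (Csf1r, C1qa, Lyz2 and Cd14), and the mean was 7.31 in the adult and between 5.87 and 6.51 on the embryonic arrays. Of the 8 measured T cell markers, Cd3e alone was higher in the adult, and their mean was 5.59 in the adult and between 5.02 and 5.24 on the embryonic arrays. The epithelial list ran from a mean of 9.29 at E13.5 to 11.06 at E18.5 and 11.66 in the adult. The part of these cell types in the chemokine values was not tested.

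**Figure D4:**
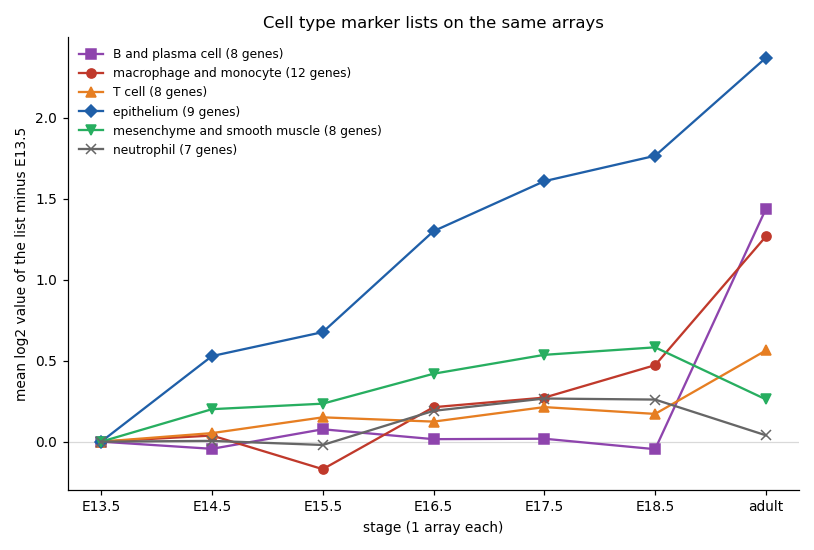
Mean log2 value of 6 lists of cell type markers minus their value at E13.5 (vertical axis) by stage, 1 array per stage, with the number of measured genes in the legend. The epithelial list climbs at each step, the macrophage list climbs from E15.5 on, and the B and plasma cell list is flat before birth and highest in the adult, at a mean of 6.09.

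Cxcl14, made by epithelium and stroma, also rose. It read 5.20, 4.94, 5.51, 5.63, 5.93 and 6.15 from E13.5 to E18.5 and 6.37 in the adult. From E14.5 on, each array was above the one before it. The slope was 0.22 per day (SE 0.04, limma adjusted p = 0.00815), both probe sets rose, and the adjusted p was 0.0635 without E18.5. Cxcl14, Ccl6, Ccl9, Ccl5 and Ccl24 ranked with the 7 stages at a Spearman correlation above 0.9, the cutoff of the study's methods (5 of 46, 10.9%, against 6.5% of all genes), and Cxcl12 was below -0.9 (1 of 46, against 7.73% of all genes). These counts carry no p.

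Cxcl12 holds stem cells, lymphocytes and migrating cells in place through Cxcr4 and guides vessels and nerves in the embryo. Its gene value was 8.15, 7.60, 6.46, 6.42, 6.44 and 6.21 from E13.5 to E18.5 and 5.75 in the adult. The drop lay between E13.5 and E15.5 and the later arrays were nearly level. The slope was -0.38 per day (SE 0.08, limma adjusted p = 0.0163), and the E18.5 array differed from that of E13.5 by -1.94. The fall rests on 1 of 3 probe sets. The brightest read 9.23, 9.23, 8.86, 8.98, 9.32 and 9.29 from E13.5 to E18.5 and 9.29 in the adult, with a slope of 0.02 (limma adjusted p = 0.83 with this probe set as the gene), and the dimmest stayed between 5.69 and 5.79. The adjusted p of the gene was 0.0567 without E17.5, 0.0651 without E14.5 and 0.116 without E13.5.

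Cxcr4 was the only receptor of the family with a span of at least 1. It read 9.53, 10.05, 10.20, 9.70, 9.33 and 9.14 from E13.5 to E18.5 and 7.64 in the adult. It peaked at E15.5, declined on each later array, and the adult lay below every embryonic one. The straight line caught little of this, with a slope of -0.13 (SE 0.07, limma adjusted p = 0.259). The adult was 1.69 below the fitted level (SE 0.36, limma adjusted p = 0.019), and the adjusted p was 0.0545 without E17.5. Without E13.5, the slope of Cxcr4 passed as a fall. Ackr3, the scavenging receptor of Cxcl12 and not one of the 46 genes by its symbol, read 8.78, 8.38, 7.81, 7.59, 7.67 and 7.70 from E13.5 to E18.5 and 7.69 in the adult. It fell by 0.22 per day (SE 0.05, limma adjusted p = 0.0276), with its drop on the first 3 arrays.

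**Figure D5:**
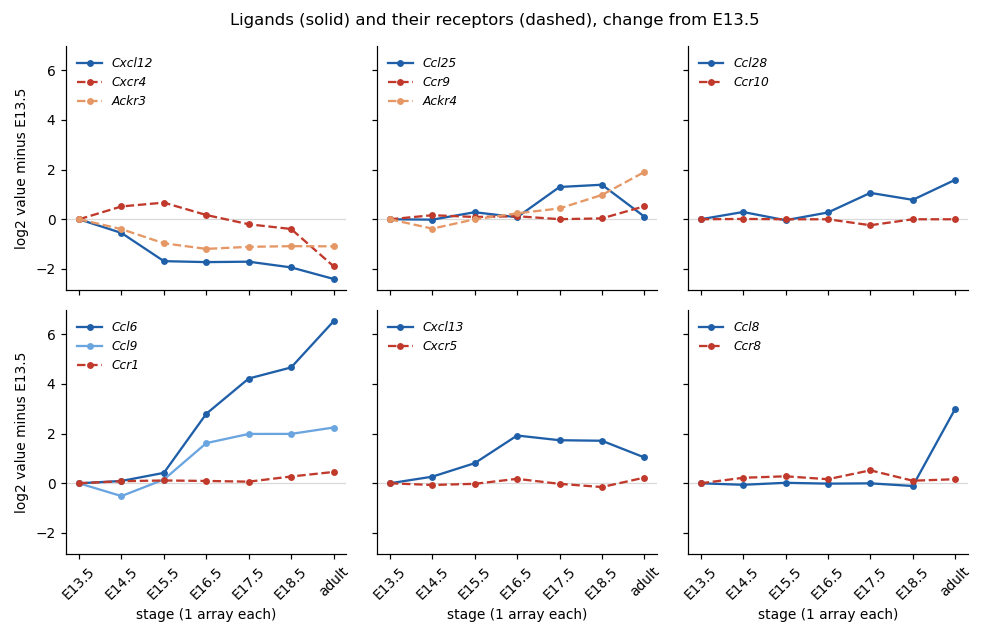
Log2 value minus the value at E13.5 (vertical axis, the same in all panels) by stage for ligands (solid lines) and the receptors that bind them (dashed lines), 1 array per stage. The lines of Ccr1, Cxcr5 and Ccr10 stay within 0.5 of their E13.5 value, Ccl8 leaves it in the adult, and in the panel of Cxcl12 both Cxcr4 and Ackr3 end below E13.5.

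Cxcr3, the receptor for Cxcl9, Cxcl10 and Cxcl11 on activated T cells, was the other receptor that passed. It read 5.84, 6.08, 6.12, 6.11, 6.18 and 6.47 from E13.5 to E18.5 and 6.14 in the adult. The first array was lowest and E18.5 highest, a slope of 0.10 per day (SE 0.02, limma adjusted p = 0.0303) that lost the call under 6 alternatives that kept the line, with adjusted p from 0.0517 (without E17.5) to 0.184 (without E18.5). Its ligands had small values of their own. Cxcl9 was at 4.97 in the adult and 4.41 at E18.5, a difference of 0.52 from the fitted level (SE 0.10, limma adjusted p = 0.012). Cxcl10 and Cxcl11 differed by 0.23 and -0.01, with 95% intervals of -0.04 to 0.49 and -0.27 to 0.25.

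The neutrophil chemokines of chromosome 5 passed no test. Cxcl1, Cxcl2 and Cxcl3 spanned 0.46, 0.29 and 0.14 over the 7 stages, Cxcl5 spanned 0.05, and their receptor Cxcr2 spanned 0.39. Of these, all but Cxcl1 had means in the lowest 25% of genes, where dim signals limit what can be seen. Of the 7 measured neutrophil markers, S100a8 and S100a9 rose along the embryonic line, by 0.19 and 0.22 per day (limma adjusted p = 0.0277 and 0.00475), and S100a8 was lower in the adult by a difference of -1.03. The part of these cells in the chemokine values was not tested. Ccl20, which brings Ccr6-bearing cells to lymphoid follicles, spanned 0.25 and Ccr6 0.19. Ccr7, which guides dendritic cells and naive T cells, spanned 0.45. A probe set shared by the near-identical Ccl21 genes, ligands of Ccr7, names several genes and was therefore left out of the 46. It read 6.99, 6.94, 6.81, 7.24, 7.30 and 7.52 from E13.5 to E18.5 and 9.53 in the adult, a difference of 2.10 (SE 0.18, limma adjusted p = 0.000706 over all probe sets). The copies cannot be told apart on this array. The other probe sets left out in this way name Ccl19, also a ligand of Ccr7, or Ccl27a with Ccl27b. The Ccl19 probe set read 4.72 at E18.5 and 5.45 in the adult, a difference of 0.68 from the fitted level (SE 0.11). Those of Ccl27a and Ccl27b differed by -0.46 and -0.74 (SE 0.34 and 0.36). The remaining members, Cxcl15, Cxcl17, Ccr1l1 and Ccr4, spanned between 0.17 and 0.32.

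Outside the ligands and receptors, a list of 48 other genes of chemokine signalling had 42 measured genes. Of these 5 rose (11.9%, against 9.12% of all genes) and 0 fell along the line by the limma test, against 10.4% of all genes. At an unadjusted p under 0.05, 3 fell, and the share of all genes at that p was not counted. In the adult 2 were higher (4.76%, against 4.23% of all genes) and 2 were lower (4.76%, against 3.26% of all genes). Rarres2, which encodes the attractant chemerin, rose by 0.59 per day (SE 0.08, limma adjusted p = 0.00493). Ackr4, which scavenges Ccl19, Ccl21 and Ccl25, read 9.44, 9.07, 9.44, 9.68, 9.88 and 10.42 from E13.5 to E18.5 and 11.35 in the adult. It rose by 0.22 per day (SE 0.05, limma adjusted p = 0.0246) and was a further 1.15 higher in the adult (SE 0.25, limma adjusted p = 0.0225). The others that rose were Rgs2, a regulator of G protein signalling, Plcb3, a phospholipase C, and Fgr, a Src family kinase. Rgs1, which dampens chemokine signals in lymphocytes, was 1.46 higher in the adult (SE 0.14, limma adjusted p = 0.000777). Gng2, a G protein subunit, and Dpp4, a protease that trims chemokines such as Cxcl12, were lower in the adult by differences of -1.41 and -1.05 (limma adjusted p = 0.00769 and 0.00534).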

How the data were processed

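Total RNA of mouse colon, 1 sample per stage, was hybridized to 7 Affymetrix Mouse Genome 430 2.0 arrays. The deposited values are log2 expression values that the authors made with RMA in the affy package 1.22.1 and R 2.9.2, per the labels. They were used without further scaling. A gene took the median of its single-gene probe sets. Of 45101 probe sets, 34958 name 1 gene, 932 several and 9211 none in the platform annotation, and 18033 of 18195 gene IDs matched RefSeq and took its symbol. limma 3.58.1 (R 4.3.3) was fitted to all 18194 genes (lmFit, eBayes, two-sided, Benjamini-Hochberg). The same fit was also run on simulated data whose spread came from the residuals of the real fit. Python 3.11.15, pandas 2.3.3, numpy 2.4.6, scipy 1.17.1 and matplotlib 3.10.9 were used for the rest. No replicate exists at any stage, so p-values measure the spread around the embryonic line. Precision is limited by the number of arrays. The rule for members reads symbols and no values, but the family, the gene lists and the tests were chosen with earlier results of these data known. Named with all values were the genes that passed a test or the Spearman cutoff, those spanning at least 1, and most of their partners. Alternatives were the highest probe set, no dim genes (lowest 25%), centred arrays, another variance model, another adult reference, no minimum difference, the embryonic arrays alone and leaving out each embryonic array. Fitting each probe set by itself, and a step (E16.5 to E18.5 minus E13.5 to E15.5) in place of a line, were chosen after seeing the data.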

Additional observations from a re-analysis of the deposited data

How the results depend on the processing

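The count of 8 rising genes was 4 with a step in place of a line (Ccl11, Ccl6, Ccl9 and Cxcl13, with 3.55% of all genes) and between 3 and 9 when an embryonic array was left out (4.46% to 11.4% of all genes). The 9 without E15.5 were the 8 genes and Ccl28. The lowest counts came when E17.5 was left out (Ccl11, Ccl6 and Cxcl14) or E18.5 (Ccl11, Ccl6 and Cxcl13). Ccl6 passed in each of these. The falling count of 1 was 0 with the highest probe set (10.6% of all genes) and 0 with a step (3.95% of all genes). It was 0 to 1 with an array left out (4.7% to 13.9% of all genes). With the highest probe set, the slope of Cxcl12 was 0.0185 in place of -0.38. The 1 gene higher in the adult became 3 with the highest probe set (5.15% of all genes) and 3 with each probe set fitted by itself (Ccl28, Ccl8 and Cxcl16 in both), 2 against the level midway between E17.5 and E18.5 (Ccl6 and Ccl8, with 4.74% of all genes), 9 with no minimum difference (10.2% of all genes), and 1 to 2 with an array left out (3.66% to 4.34% of all genes). The 1 gene lower in the adult became 2 with the highest probe set (Ccl25 and Cxcr4, with 5.52% of all genes). It became 0 to 2 with an array left out (2.81% to 3.39% of all genes), with 0 without E17.5 and 2 without E16.5. Above the Spearman cutoff there were 5 genes and 4 to 9 with an array left out (7.43% to 11% of all genes). Below it there was 1 gene, and 0 with the highest probe set (8% of all genes). On the 6 embryonic arrays alone there were 2 (Ccl2 and Cxcl12, with 7.58% of all genes). With an array left out there were 1 to 2 (8.44% to 10.8% of all genes). Values of single named genes were compared under settings other than the step and the fits of single probe sets. Of these 112 values, 85 kept direction and call, 26 lost the call and 1 reversed. The cause was not tested, except that leaving out an array leaves fewer samples. No paired analysis was possible because each stage has 1 array. Dim signals limit what can be seen in the 25 members in the lowest 25% of genes, and the single adult array limits every adult difference.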
